A study of Homo sapiens with 16 samples.

Results

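HCC1806 cells grown as spheroids for 20 days were compared with the same line grown as a monolayer, using the 2 day 20 libraries and the 2 monolayer libraries of a series of 16. HCC1806 is an established triple-negative breast cancer line derived from an acantholytic squamous carcinoma of the breast. The members were chosen by their sample titles, because the treatment label names monolayer culture for the spheroid libraries as well. HCC1806 spheroids 10 days after seeding (2 libraries) and BT474, another breast cancer line, as monolayers and as day 10 and day 20 spheroids (2 libraries each) entered the fits. HCC1806 was kept in RPMI and BT474 in DMEM, both with 10% fetal bovine serum, and no library carries a genetic change or drug according to the labels. RNA was poly(A)-selected and sequenced as 150 bp read pairs. Nothing in the labels says whether replicates came from separate cultures, so p-values measure only the spread between these libraries, which may be technical.

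In stratified squamous epithelium, basal cells divide and carry keratins 5 and 14, and cells that leave the basal layer stop dividing and switch to keratins 1 and 10. They then build desmosomes of another composition and, in the granular layer, lay down cornified envelope proteins that transglutaminases cross-link, together with barrier lipids. Tumours of squamous type keep parts of this programme. A spheroid also has an inside and an outside, so its cells differ in access to oxygen and nutrients. In bulk RNA a gene switched on in a few cells and a gene raised slightly in all cells cannot be told apart.

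The 4 libraries held 32390615 and 36218075 counts (monolayers) and 34603785 and 37432062 (day 20). The monolayer libraries stood apart from each other. Mitochondrially encoded genes took 17.8% of counts in monolayer replicate 1 and 0.768% in replicate 2, against 2.25% and 2.7% at day 20. Over all genes tested, log2 differences between the 2 HCC1806 monolayer libraries had an SD of 1.89, while in the other 5 pairs this SD ran from 0.483 to 0.624. Each change is therefore given against both monolayer libraries together and against each one. All 10 epithelial markers were present in every HCC1806 library. Their summed level was 11700 and 9820 CPM (counts scaled to library size, here with TMM factors) in monolayers and 10400 and 11200 at day 20. The 12 fibroblast markers summed to 56.1 and 25.5 CPM in monolayers and 105 and 90.2 at day 20. Leukocyte and endothelial markers were lower. The 13 leukocyte markers summed to at most 9.81 CPM in any of the 4 libraries and TYROBP was at 0 counts in all 4. The 10 endothelial markers summed to at most 9.01 CPM.

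Of 20929 genes tested, 1306 were called higher at day 20 (6.24%) and 1016 lower (4.85%). A call required an adjusted p under 0.05 in edgeR's quasi-likelihood test and the same direction against each monolayer library. None of the 2322 genes that passed the p threshold failed on direction, and in none did the 2 groups overlap. Both day 20 libraries lay above both monolayer libraries in 26.8% of all genes tested and below in 17.8%. The change against each monolayer library was larger than the difference between those 2 libraries in 1128 of the genes called higher (15.2% of all genes tested met this in the higher direction) and in 719 of those called lower (8.46%). More than 8-fold against both libraries were 196 genes called higher and 6 called lower.

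These calls borrow the spread of the other pairs, and that limits them. With weights estimated per group (limma voom), which give the monolayer pair its own spread, no gene was called in either direction, and 1352 of 20929 had an unadjusted p under 0.05. With the 4 libraries alone edgeR also called none, with 1643 unadjusted, and DESeq2 on the 12 libraries called 2240 higher and 2332 lower. With only the HCC1806 libraries, DSG4 and MMP13 were called higher and no gene lower (3256 unadjusted). The adjusted p-values below therefore rank genes, and the values in each library carry the comparison. The word "rose" or "fell" below means called in the fit of 12 libraries.

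**Figure D1:**
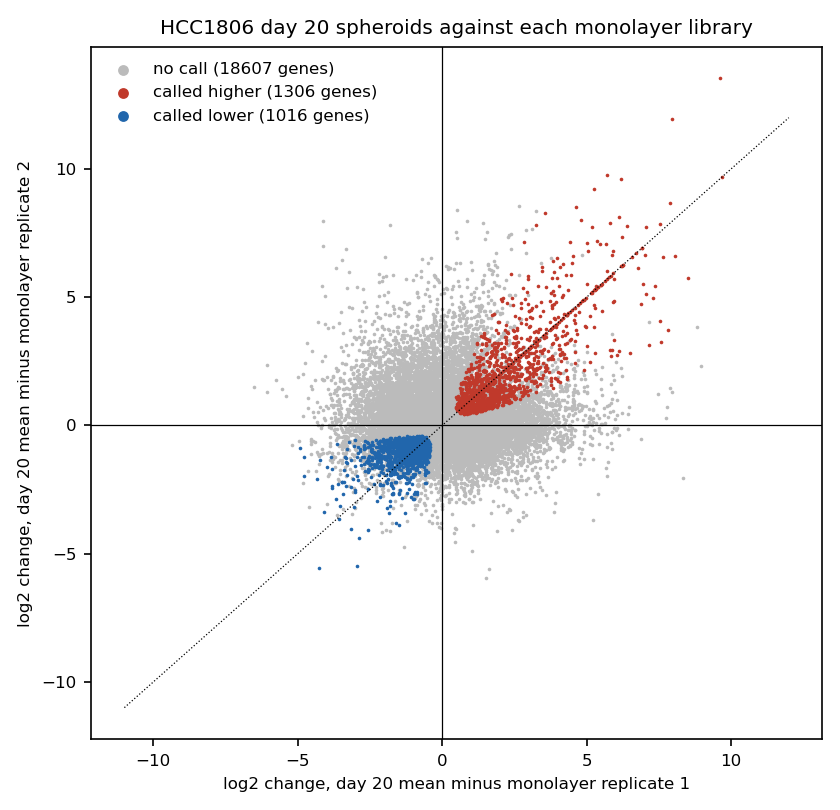
Each point is 1 of 20929 genes, with the log2 change of the day 20 mean against monolayer replicate 1 on the horizontal axis and against replicate 2 on the vertical axis. The 1306 genes called higher and the 1016 called lower lie in the quadrants where both changes have one sign, and 9299 genes lie in the other quadrants.

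Of the 12 genes that stood highest above both monolayer libraries, 6 belonged to the desmosome, suprabasal keratin or cornified envelope lists (DSG1, DSG4, KRT1, LCE1A, KPRP and RPTN). DSG1, the desmoglein of suprabasal epidermis (chr18:31318089-31357029, GRCh38), had 0 counts in both monolayer libraries and 38.9 and 40.8 CPM at day 20, at least 815-fold higher when the monolayer pair is given 3 counts in all as its floor. At day 10 it stood at 3.43 and 3.13 CPM. KRT1, the keratin of differentiating cells (chr12:52674736-52680407), was at 2.96 and 0.137 CPM in monolayers, 49.9 and 44.8 at day 10, and 723 and 764 at day 20. Its log2 fold change was 8.96 ± 1.26 (SE, adjusted p = 0.00504), with separate changes of 7.95 and 11.96. The monolayer libraries differed from each other by far more than the day 20 pair did, and both lay far below it.

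CXCL14, a chemokine of normal skin (chr5:135570679-135579279), was at 0.681 and 0 CPM in monolayers and at 521 and 639 at day 20, a log2 fold change of 10.89 ± 1.18 (adjusted p = 0.00207). At day 10 it was only at 4.38 and 2.92 CPM. DSG4, another desmoglein (chr18:31376777-31414912), was at 0.0801 and 0.0549 CPM and at 26.2 and 22.2. CYP24A1, the enzyme that degrades active vitamin D (chr20:54153449-54173973), was at 0.321 and 0.165 CPM and at 126 and 59.8. The rule for the 12 highest genes required every day 20 value to lie over every monolayer value. The day 20 replicates of CYP24A1 were less alike than those of DSG4.

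The other 7 of the 12 highest genes follow. TENM2, a cell surface teneurin, went from 0.881 and 1.18 CPM to 142 and 104. DMBT1, a secreted scavenger receptor protein, went from 0.16 and 0.0824 CPM to 45.8 and 17.1. The collagen chain gene COL4A3 (at least 120-fold) and the envelope genes LCE1A (at least 139-fold) and KPRP (at least 118-fold) had 0 counts in both monolayer libraries. RPTN and PLA2G2F had 3 and 2 monolayer counts, which gives ratios of 284 (95% exact interval 96.9 to 1380) and 300 (82.8 to 2480). Such intervals cover counting error only and are too narrow where both mates of a pair were counted.

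**Figure D2:**
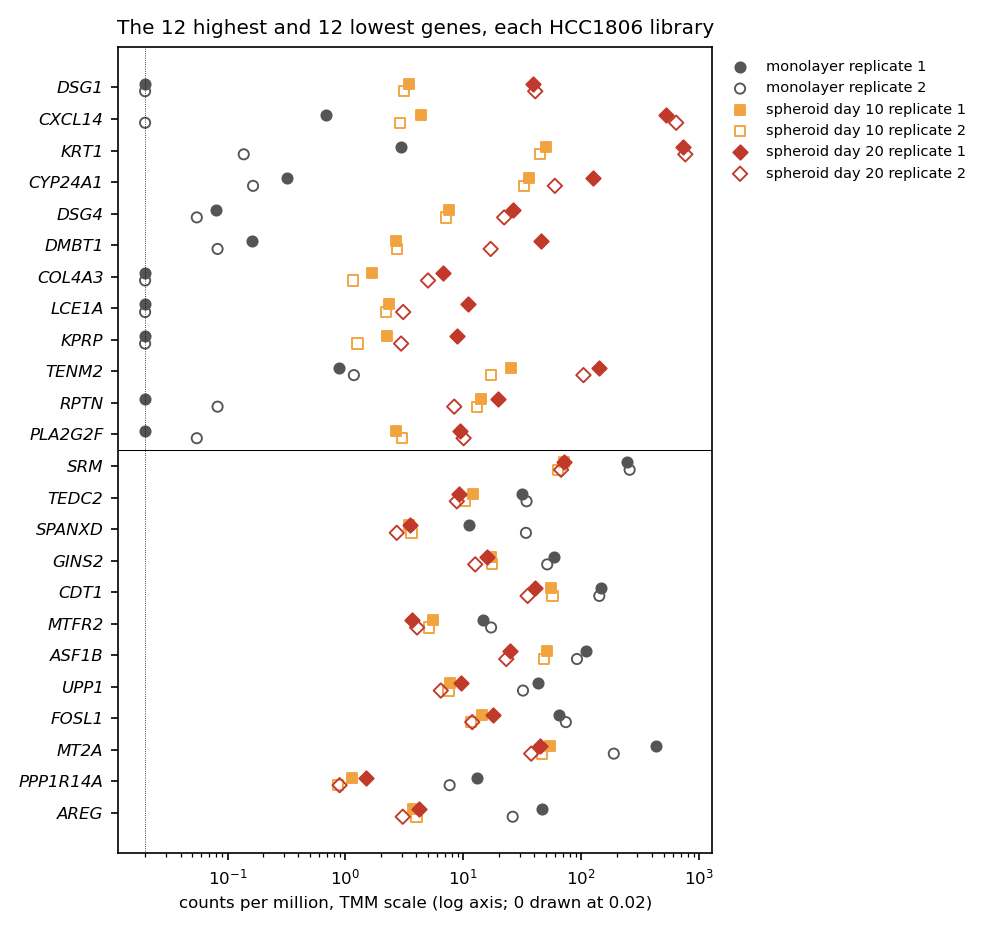
Level of the 12 highest and 12 lowest genes in each HCC1806 library, in CPM on a log axis with 0 drawn at 0.02; filled and open symbols are replicates 1 and 2. Day 20 values lie above both monolayer values in the upper 12 rows and below both in the lower 12, as the rule for picking them required. CXCL14 and KRT1 stand far higher at day 20 than at day 10.

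The 250 bases before the start of 3 cornified envelope genes that rose are shown because each holds the letters TGANTCA (RefSeq promoter table, GRCh38.p14). TGANTCA, in capitals where it matches, is a loose form of the core that AP-1 factors bind in many epidermal genes, since N is any base. The middle base is T in RPTN, G in SPRR1A and A in FLG2. The 3 genes were picked after their values were seen, and none of the bases shown lies in an exon of GENCODE 29. RPTN, which encodes repetin, lies at chr1:152159229-152159478, minus strand. SPRR1A, a small proline-rich envelope protein, lies at chr1:152983831-152984080, plus strand, and FLG2, filaggrin 2, at chr1:152360007-152360256, minus strand.
RPTN: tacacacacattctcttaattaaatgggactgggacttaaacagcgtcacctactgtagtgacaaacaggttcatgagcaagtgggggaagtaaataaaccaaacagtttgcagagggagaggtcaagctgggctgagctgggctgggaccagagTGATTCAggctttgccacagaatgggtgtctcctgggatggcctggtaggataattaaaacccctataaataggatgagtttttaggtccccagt
SPRR1A: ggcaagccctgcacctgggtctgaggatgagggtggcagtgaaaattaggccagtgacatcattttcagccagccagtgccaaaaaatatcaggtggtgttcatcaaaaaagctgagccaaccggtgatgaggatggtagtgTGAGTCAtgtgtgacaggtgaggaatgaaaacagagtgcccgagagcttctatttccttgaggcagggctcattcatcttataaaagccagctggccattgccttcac
FLG2: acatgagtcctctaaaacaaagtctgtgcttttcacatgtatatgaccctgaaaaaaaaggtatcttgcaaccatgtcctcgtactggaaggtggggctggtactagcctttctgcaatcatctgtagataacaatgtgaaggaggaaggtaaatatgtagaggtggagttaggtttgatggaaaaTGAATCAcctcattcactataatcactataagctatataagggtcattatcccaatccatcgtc
The match begins 95 bases before the start in RPTN, 108 in SPRR1A and 64 in FLG2. RPTN was at 0 and 0.0824 CPM in monolayers and at 19.9 and 8.37 at day 20, SPRR1A at 1.96 and 1.34 and at 82.6 and 50.2, and FLG2 at 0.0801 and 0.11 and at 5.09 and 2.22. In each gene both day 20 values lay above both monolayer values, as in every gene called higher. With either strand searched, TGANTCA was found in 6.57% of all promoters in the table, 5.09% of those of genes tested, 6.43% of those of genes called higher and 3.61% of those of genes called lower. A match is a run of letters and not evidence of binding.

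Cornified envelope precursors were the list with the most calls in 1 direction. Of 35 tested members 22 rose and none fell, beside 6.24% of all genes called higher and 4.85% lower. The median log2 change was 4.6 against monolayer replicate 1 and 4.89 against replicate 2, beside 0.12 against each over all genes tested. With members at 0 monolayer counts set at their bound, the median log2 fold change was 4.91. Involucrin (IVL), an early envelope protein, was at 5.49 and 24.8 CPM in monolayers and 148 and 122 at day 20 (log2 fold change 3.15 ± 0.65, adjusted p = 0.0194). Suprabasin (SBSN) went from 0.961 and 0.412 CPM to 104 and 55.1, and KRTDAP, a secreted keratinocyte protein, from 1.12 and 0.0274 CPM to 48.7 and 41.7; both were picked after their values were seen. Of the late granular proteins, filaggrin (FLG) was at 0 and 4.83 CPM in monolayers and 39.3 and 14.8 at day 20 and was not called (adjusted p = 0.17). Loricrin (LOR) reached only 2.5 and 1.16 CPM. LCE and SPRR genes are near-identical families, so counts of single members are uncertain.

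Desmosome genes rose with them: 8 of 13 tested members were called higher and PKP3 lower, beside 6.24% and 4.85% of all genes tested. Desmocollin 1 (DSC1), the suprabasal desmocollin, was at 0 and 0.192 CPM in monolayers and 9.83 and 5.79 at day 20. DSG3, the desmoglein of deeper layers, was at 23.7 and 30 CPM and at 227 and 205, a log2 fold change of 3.01 ± 0.22 (adjusted p = 0.00218). PKP3, a plakophilin also found in simple epithelia, was at 251 and 318 CPM and fell to 161 and 177. DSG2, the desmoglein of simple epithelia, lay between its monolayer values of 35.2 and 271 CPM at 158 and 152.

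Of 18 suprabasal and stress keratins 4 rose (KRT1, KRT77, KRT6B and KRT16) and KRT24 fell. Counts of called keratins here stand beside 6.24% of all genes called higher and 4.85% lower. KRT16, a keratin of stressed and wounded epidermis, was at 56.3 and 16.7 CPM in monolayers and 459 and 436 at day 20 (log2 fold change 3.62 ± 0.54, adjusted p = 0.00613). KRT6B is near-identical to KRT6A and may share reads with it, so its value is uncertain. Of 5 simple epithelial keratins 3 fell: KRT18 from 831 and 361 CPM to 144 and 132, KRT8 from 684 and 787 to 341 and 391, and KRT7 by 1.27 on the log2 scale. KRT10, the partner of KRT1, was at 142 and 56.2 CPM in monolayers and 198 and 204 at day 20 (adjusted p = 0.0995). KRT14, a basal keratin, lay between its monolayer values. Per kilobase of gene model, the level of KRT1 at day 20 (291 and 307 CPM per kb) stood below that of KRT5 (999 and 1200) and of KRT14 (534 and 531). Of 18 basal layer and hemidesmosome genes 2 rose, beside 6.24% of all genes tested. Another 10 had opposite signs against the 2 monolayer libraries, as had 44.4% of all genes tested.

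Enzymes of cross-linking and barrier lipids included 10 risen genes of 22 tested and none that fell. This stands beside 6.24% of all genes called higher and 4.85% lower. TGM5, a transglutaminase of the upper epidermis, was at 0.16 and 0 CPM in monolayers and 12.4 and 10.7 at day 20. CYP4F22, which hydroxylates very long fatty acids for ceramides, was at 0.0401 and 0 CPM and at 6.17 and 4.68. ABCA12, the lipid transporter of lamellar granules, was already present, at 40.3 and 32.1 CPM, and stood at 203 and 126 at day 20 (log2 fold change 2.19 ± 0.27, adjusted p = 0.00333). Of 15 kallikreins and inhibitors 1 rose, near the 6.24% of all genes: SPINK5, an inhibitor of epidermal kallikreins (3.25 and 3.51 CPM to 45.5 and 31.2). SPINT2 fell, and 8 of the 15 lay above both monolayer libraries at day 20, beside 26.8% of all genes.

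Of 24 keratinocyte transcription factors 15 rose and none fell, beside 6.24% of all genes called higher and 4.85% lower. HOPX, a factor of differentiating cells, went from 0.561 and 1.1 CPM to 17.8 and 12.7, a log2 fold change of 4.17 ± 0.38 (adjusted p = 0.0012). MAF, which acts in terminal differentiation, had 0 monolayer counts and 1.9 and 1.59 CPM (at least 35.6-fold). TP63, the master factor of squamous epithelium, was at 227 and 281 CPM and at 582 and 570 (log2 fold change 1.18 ± 0.26, adjusted p = 0.0245). KLF4, which acts in barrier formation, was at 29.8 and 45.1 CPM and at 67.3 and 67.0, a change smaller against replicate 2 (0.57) than the difference between the monolayer libraries.

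The counts of the signalling lists stand beside 6.24% of all genes called higher. Of 24 genes in the Notch list 4 rose: NOTCH1 (83.6 and 120 CPM to 284 and 296), NOTCH3, the ligand gene DLL1 and the HES family gene HES2. Of 18 genes of the EGF receptor family EGFR, ERBB4 and the feedback inhibitor SPRY4 rose. Against monolayer replicate 2 the changes of EGFR (0.684) and ERBB4 (1.68) were smaller than the difference between the monolayer libraries. AREG, the ligand amphiregulin, fell from 46.4 and 26.2 CPM to 4.24 and 3.06, a log2 fold change of -3.31 ± 0.32 (adjusted p = 0.00149), the lowest of all by the rule used. In the vitamin D and retinoid list of 24, CYP24A1, STRA6, CYP26A1 and RXRA rose. WNT5A, AXIN2 and LGR6 rose of 20 Wnt genes, and 4 of 24 BMP and TGF-beta genes rose, BMP2 among them (7.89 and 5.52 CPM to 34.9 and 36.5).

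Of 32 genes of the hypoxia response 10 rose and none fell, beside 6.24% of all genes called higher and 4.85% lower. Median log2 changes were 1.01 against monolayer replicate 1 and 0.88 against replicate 2. Signs against the 2 libraries were opposite in 12 of the 32, beside 44.4% of all genes tested. NDRG1, a stress gene induced at low oxygen, went from 184 and 122 CPM to 1181 and 971 (log2 fold change 2.82 ± 0.26, adjusted p = 0.0012). EGLN3, an oxygen-sensing hydroxylase, was at 2.92 and 2.61 CPM and at 33.6 and 23.9. SLC2A1, the glucose transporter GLUT1, was at 243 and 227 CPM and at 544 and 553. CA9, a widely used hypoxia marker, was at 0.401 and 0.412 CPM in monolayers and 2.69 and 0.41 at day 20, so the groups overlapped. VEGFA was at 227 and 49.8 CPM and at 461 and 472 and was not called (adjusted p = 0.0784).

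MMP13, a collagenase, was at 2.08 and 2.44 CPM in monolayers and 143 and 122 at day 20 (log2 fold change 5.87 ± 0.26, adjusted p = 0.0001). In the list of metalloproteinases and plasminogen system genes 5 of 22 rose and none fell. This count and the other counts of risen genes in this paragraph stand beside 6.24% of all genes called higher. FABP4, a fatty acid binding protein, went from 6.33 and 0.329 CPM to 356 and 313, and CD36, a fatty acid receptor, from 0.36 and 0.0549 to 30.8 and 26.6. They were the 2 risen genes of 23 in the fatty acid list, near the share of all genes. In that list 16 had opposite signs against the 2 monolayer libraries, beside 44.4% of all genes tested. Of 21 mucin and CEACAM genes 7 rose, CEACAM5 from 0.24 and 1.21 CPM to 42.4 and 26.9. Of 25 collagen and matrix genes 5 rose and 12 had opposite signs, the latter near the share of all genes. COL3A1, a fibroblast collagen, went from 0 and 0.137 CPM to 7.85 and 5.24. The 12 fibroblast markers together summed to 56.1 and 25.5 CPM in monolayers and 105 and 90.2 at day 20; COL1A1 and COL3A1 were called higher of 10 tested, and their part in the matrix result was not tested. COL1A2 was at 0 counts in both monolayer libraries and in 1 day 20 library.

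Of 36 DNA replication genes tested 17 fell and none rose, beside 4.85% of all genes called lower. Another 13 had opposite signs against the 2 monolayer libraries, beside 44.4% of all genes tested. The median log2 change was -0.33 against replicate 1 and -1.59 against replicate 2. CDT1, which licenses replication origins, was at 147 and 142 CPM in monolayers and 40.7 and 35.1 at day 20, a log2 fold change of -1.93 ± 0.15 (adjusted p = 0.000715). GINS2, a subunit of the replicative helicase, was at 59 and 51.5 CPM and at 15.9 and 12.6. TK1, thymidine kinase, was at 378 and 552 CPM and at 119 and 101. In CDT1 and GINS2 the monolayer replicates lay close together, and in all 3 genes they lay above the day 20 pair, as in every gene called lower. ASF1B, a histone chaperone, fell from 110 and 92.1 CPM to 24.9 and 23.1.

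The letters TTTNNCGC, a loose form of the site of E2F factors, which drive S phase genes, were searched on either strand of the same windows. TTTNNCGC was found in 5.92% of all promoters in the table, 7.71% of those of genes tested, 9.34% of those of genes called lower and 6.62% of those of genes called higher. Other letters shifted too: CCAAT was in 32.5%, 38.6% and 30.8% of those of genes tested, lower and higher, and TATAAA in 6.78%, 5.09% and 8.64%. A match is not evidence of binding, and a link to E2F factors was not tested. E2F1 fell from 88.1 and 63.9 CPM to 27.9 and 28.3.

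Mitosis genes did not follow one direction. Of 38 tested 6 fell and none rose, beside 4.85% of all genes called lower and 6.24% higher. Signs against the 2 monolayer libraries were opposite in 30 of the 38, beside 44.4% of all genes tested. TOP2A was at 59.4 and 665 CPM in monolayers and 216 and 183 at day 20, so its day 20 level was above one library and below the other. MKI67, the proliferation marker, likewise lay, at 328 and 203 CPM, between 166 in replicate 1 and 1210 in replicate 2. AURKB, a mitotic kinase, fell (134 and 198 CPM to 52.3 and 44.1).

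Of 26 ribosome biogenesis genes 10 fell, of 26 proteasome subunits 13 and of 47 nuclear respiratory chain subunits 11. These counts stand beside 4.85% of all genes called lower. No member of these lists rose, and the other members were not called. The respiratory chain median log2 change was -1.52 against monolayer replicate 1 but -0.33 against replicate 2. Signs were opposite in 12 of the 47, beside 44.4% of all genes tested. FBL, the methyltransferase of the nucleolus, was at 512 and 420 CPM in monolayers and 152 and 137 at day 20 (log2 fold change -1.69 ± 0.17, adjusted p = 0.0015). PSMB6, a catalytic proteasome subunit, was at 265 and 254 CPM and at 112 and 109. Outside these 3 lists, SRM, spermidine synthase, was at 244 and 258 CPM and at 71.9 and 67.5. The metal-binding gene MT2A went from 430 and 189 CPM to 44.8 and 37.6, and FOSL1, an AP-1 subunit, from 64.3 and 74.1 to 18 and 11.9. All 13 mitochondrially encoded genes and 32 of 40 ribosomal protein genes had opposite signs against the 2 monolayer libraries. So did 28 of 35 interferon-stimulated genes, beside 44.4% of all genes tested. ISG15, an interferon-induced modifier, was at 2969 CPM in monolayer replicate 1, 31.7 in replicate 2, and 64.8 and 76.6 at day 20.

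**Figure D3:**
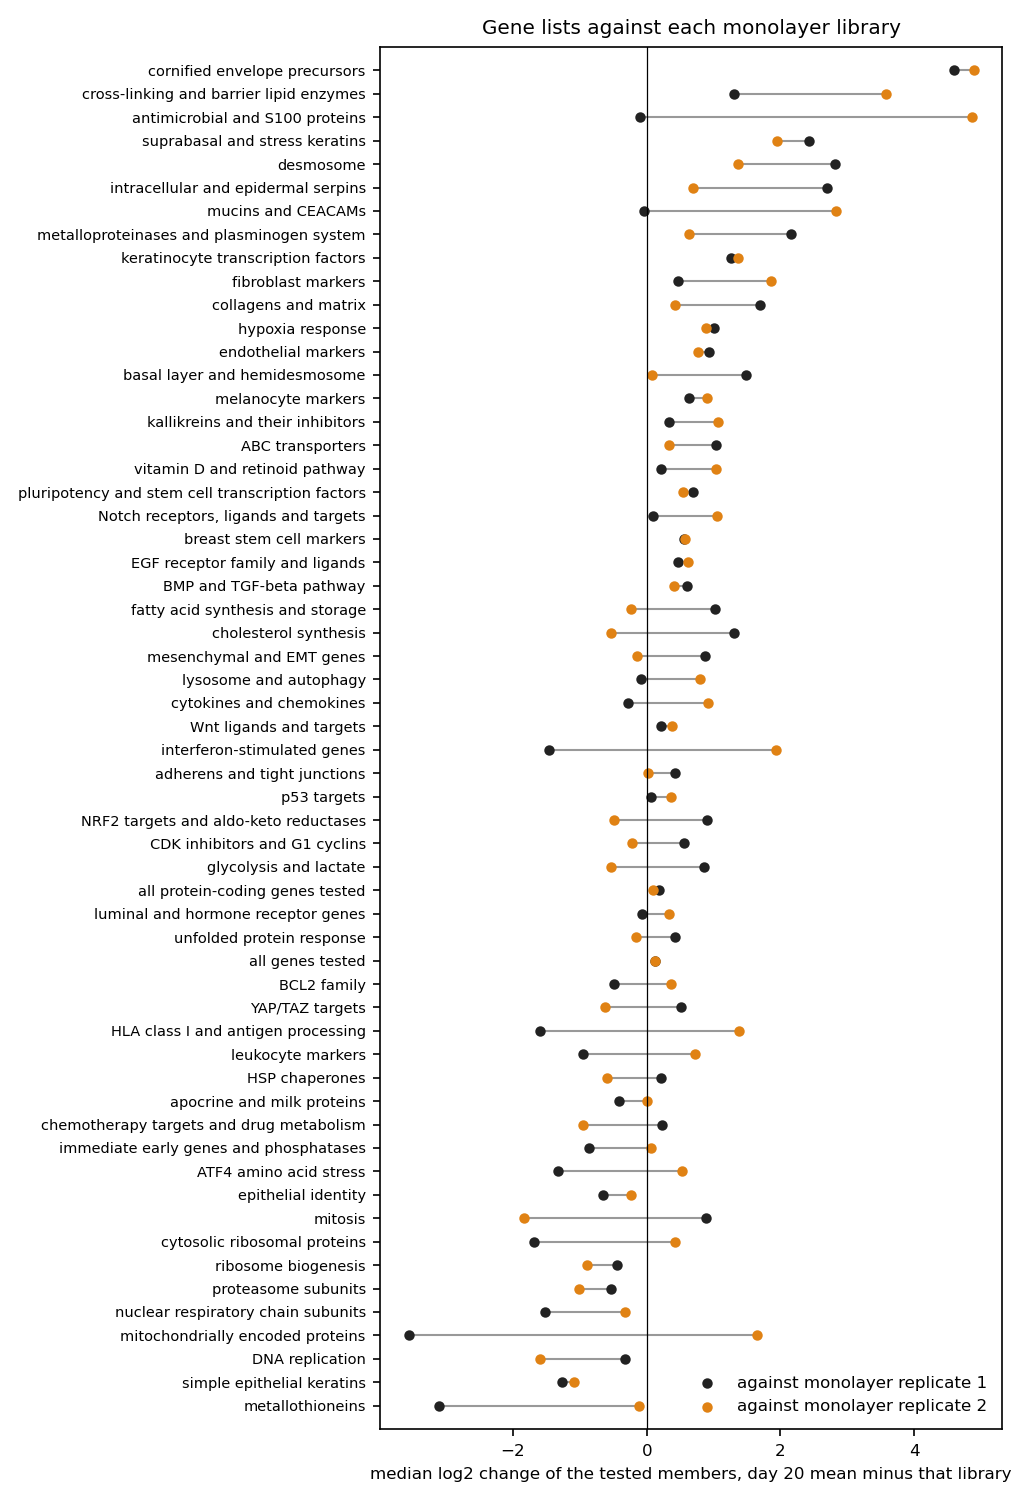
Median log2 change of the tested members of each gene list at day 20 against monolayer replicate 1 (black) and replicate 2 (orange). Cornified envelope precursors lie highest on average, simple epithelial keratins are low against both libraries (-1.26 and -1.09), DNA replication genes more so against replicate 2 (-0.33 and -1.59), and mitochondrially encoded, interferon and mitosis genes have medians of opposite sign.

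Spheroid cultures are often used to follow stem cell markers. Of 13 breast stem cell markers none rose (6.24% of all genes did) and 1 fell (4.85%): EPCAM, an epithelial adhesion protein (332 and 354 CPM to 214 and 213). At day 20, 7 of the 13 lay above both monolayer libraries, beside 26.8% of all genes, and the median log2 fold change was 0.84. CD44 was at 387 and 1200 CPM in monolayers and 1886 and 1679 at day 20 (adjusted p = 0.116). SOX2 was at 0.881 and 14.6 CPM and at 18.5 and 28 (adjusted p = 0.291). Of 12 pluripotency and stem cell factors SOX4 and KLF4 rose, SOX4 from 14.2 and 13 CPM to 90.3 and 86.2 (log2 fold change 2.70 ± 0.18, adjusted p = 0.000276).

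Day 20 was also compared with day 10 without the monolayer libraries, in a fit of 10 libraries. Of 20606 genes tested 660 were higher at day 20 (3.2%) and 742 lower (3.6%). The 4 HCC1806 spheroid libraries alone, a setting added after seeing the data, gave 870 and 991. With the monolayers in the fit (12 libraries), and with the HCC1806 libraries alone, edgeR called 0 and 0 (756 and 264 genes with an unadjusted p under 0.05), and with all 16 libraries 1 and 0. Of 35 envelope precursors 12 were higher and none lower, of 13 desmosome genes 8 and none, and of 22 cross-linking and barrier lipid enzymes 10 and none. The median log2 fold change was 1.58, 0.88 and 1.09, against 0 for all genes. KRT1 was higher by 3.98 on the log2 scale (adjusted p = 7.13e-06), CXCL14 by 7.31 (adjusted p = 1.19e-07) and DSG1 by 3.60 (adjusted p = 2.94e-07). KRT10 and KRT14 were higher as well, by 1.30 and 1.41. SRM, AREG and FOSL1 showed no call between the days. Of 38 mitosis genes 14 were lower and none higher, and of 35 interferon-stimulated genes 23 were lower. This contrast shares its day 20 libraries with the one against monolayers.

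**Figure D4:**
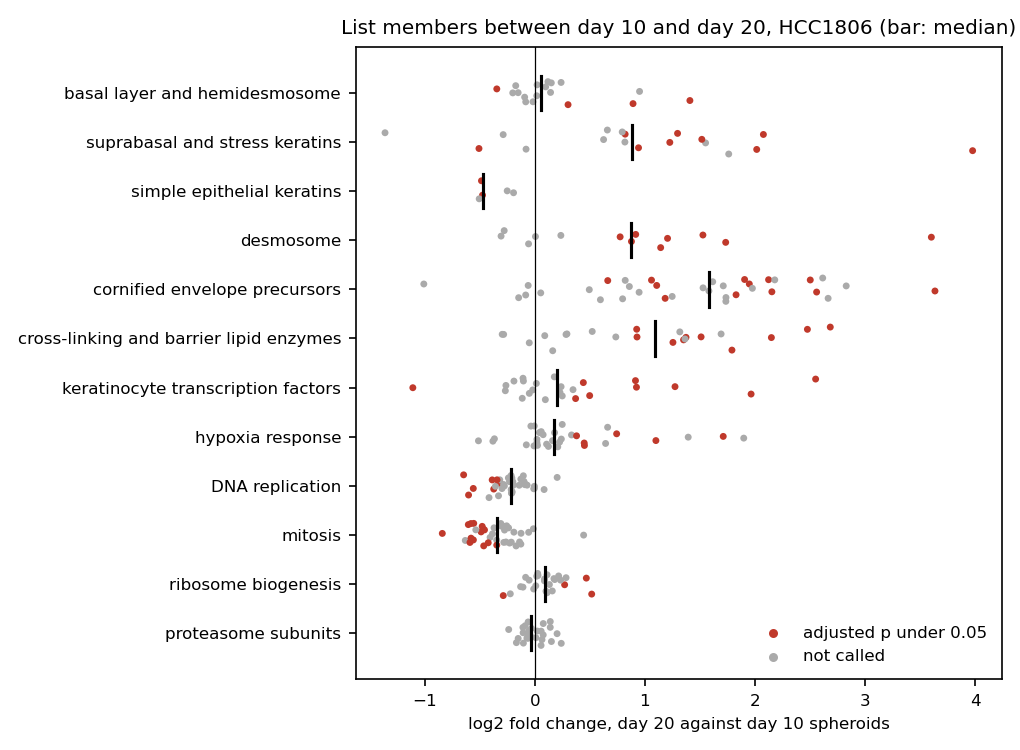
Log2 fold change of list members between day 20 and day 10 HCC1806 spheroids; each point is 1 gene, red at an adjusted p under 0.05, and the bar is the list median. Envelope, desmosome and barrier enzyme genes lie mostly right of 0, and mitosis and DNA replication genes mostly left.

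The day 20 effect was set against that of BT474 in a direct test of the difference between lines. The HCC1806 effect was higher in 375 genes (1.79% of genes tested) and lower in 205 (0.98%), but voom with group weights called none (1472 unadjusted). KRT1 was at a mean of 0.955 CPM in BT474 monolayers and 0.264 in BT474 day 20 spheroids, and its effects differed by 10.80 ± 1.62 (adjusted p = 0.0191). CXCL14 differed by 13.07 and TENM2 by 7.25. CXCL14 was near 0 in BT474 (means of 0.131 CPM in monolayers and 0.0269 at day 20), so the size of its difference is uncertain. CDT1 was at a mean of 73.5 CPM in BT474 monolayers and 62.4 at day 20, and its effects differed by -1.70 ± 0.21 (adjusted p = 0.00955). CYP24A1, DMBT1, LCE1A and RPTN had 0 counts in both BT474 groups, so the difference could not be estimated for them. Line and medium cannot be told apart here.

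**Figure D5:**
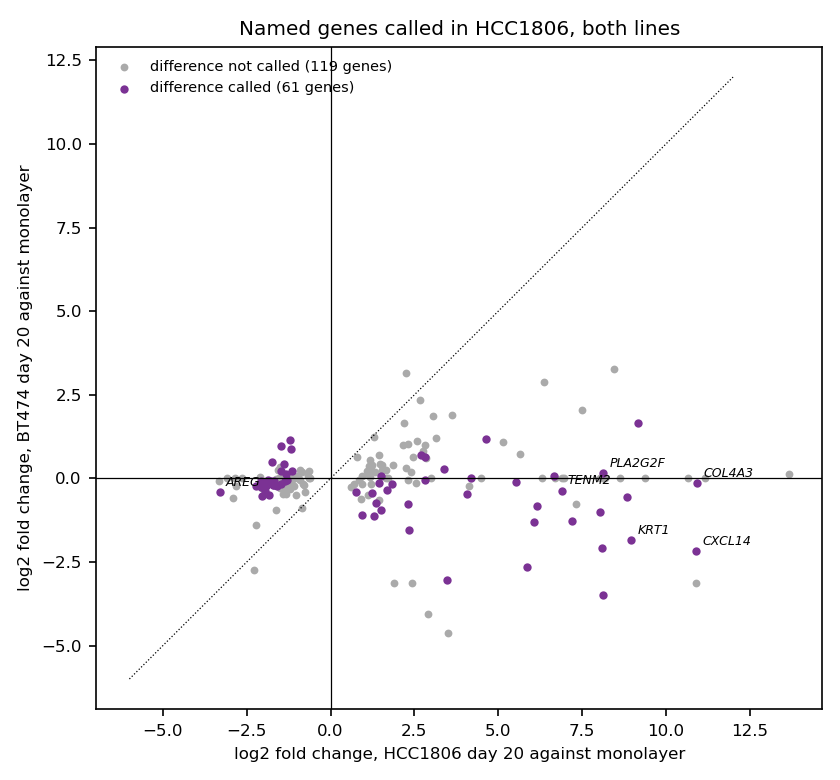
Log2 fold change at day 20 against monolayer in HCC1806 (horizontal) and BT474 (vertical) for the 180 named genes called in HCC1806. The 61 genes whose difference between lines was called (purple) lie away from the dotted line of equal change, KRT1 and CXCL14 among the farthest.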

How the data were processed

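Per the submitters' processing notes the authors used HISAT2 2.2.1, featureCounts 2.0.6 and GRCh38; the strand setting is not given in the sources used here. The deposited values used are whole-number counts per gene. Low counts were more often even than odd (1.51 to 2.04 even per odd), as when both mates are counted. The FPKM file the authors deposited was left aside.

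In R 4.3.3, edgeR 4.0.16 (TMM scaling; low counts removed by filterByExpr at minimum 10 and total 15; robust quasi-likelihood test; Benjamini-Hochberg over all genes) fitted 12 HCC1806 and BT474 libraries in 6 groups; day 20 against day 10 left out the HCC1806 monolayers. CPM are on the TMM scale, separate changes use log2 CPM with prior count 2, and errors of log2 fold changes are SE. limma 3.58.1 and DESeq2 1.42.0 served as alternatives, matplotlib 3.10.9 for figures. The fits were tested on simulated data: with 1 group given a wide spread, as in the monolayer pair, edgeR and DESeq2 made many false calls, so adjusted p-values against monolayers may be too small.

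Named genes were the 12 highest and 12 lowest protein-coding calls (mean of at least 5 CPM in the higher group, groups not overlapping) by the smaller separate change, up to 4 members per list in the main direction and 2 in the other, 2 members of lists without a call, a panel, and the 5 genes with the widest opposite changes; some further list members were named after their values were seen. Members, 56 lists (1261 symbols, 1260 matched) and named genes were chosen with earlier results of these data known. Replicate numbers did not pair the samples (correlations of deviations -0.107 to 0.0822).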

Additional observations from a re-analysis of the deposited data

Results flagged for a closer look

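These results are listed because the day 20 effect of HCC1806 differed from that of BT474 in the direct edgeR test of the difference (adjusted p under 0.05). The test called 375 genes with a higher and 205 with a lower effect in HCC1806. Among the highest genes the difference in log2 effect was 13.07 for CXCL14, 11.06 for COL4A3 (a fitted value against 0 monolayer counts in HCC1806, and no bound), 10.8 for KRT1, 7.98 for PLA2G2F and 7.25 for TENM2. Among the lowest it was -2.89 for AREG, -2.0 for ASF1B, -1.99 for UPP1, -1.82 for TEDC2, -1.7 for CDT1, -1.56 for GINS2, -1.52 for MTFR2 and -1.35 for SRM. Of the panel genes, NDRG1 differed by 2.87, NOTCH1 by 2.45 and CDKN1A by 2.22; CDKN1A was not called in HCC1806 itself (adjusted p = 0.081). All rest on the spread shared by 6 groups. Means in BT474 monolayers and day 20 spheroids were near 0 for CXCL14 (0.131 and 0.0269 CPM) and PLA2G2F (0.0712 and 0.0801). The sizes of these differences are therefore uncertain. No group has the 4 libraries needed to look for a single library far from the rest.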

How the results depend on the processing

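No gene called against monolayers changed sign in any alternative, but the counts moved widely. A call required the same sign against each monolayer library, so keeping that sign without either library was largely fixed in advance. Against monolayers, DESeq2 called 2240 higher and 2332 lower, all 16 libraries gave 666 and 410, the HCC1806 libraries alone 2 and 0, and voom with group weights and the 4 libraries alone 0 and 0. Leaving out each library in turn gave 244 to 6691 higher and 76 to 5236 lower: 4530 and 4504 without monolayer replicate 1, 6691 and 5236 without replicate 2, 244 and 76 without day 20 replicate 1, and 284 and 76 without day 20 replicate 2. Genes called higher were 56.2% of calls, and 76.2% and 78.9% without day 20 replicate 1 and 2. Where a group was left with 1 library, that library was assumed to vary like the other groups.

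Day 20 against day 10 fell to 0 and 0 with the monolayers in the fit (756 unadjusted p under 0.05) and with the HCC1806 libraries alone (264), and to 1 and 0 with all 16 libraries (495). It was 271 to 1009 higher and 237 to 1367 lower on leaving out each library. The line difference was 883 and 883 with no count filter, 1232 and 1188 with DESeq2, 70 and 15 with all 16 libraries, 4 and 0 with 8 libraries, 0 and 0 with voom, and 11 to 5752 and 0 to 4461 on leaving out each library.

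With the replicate block the counts were 1069 higher and 727 lower against monolayers, 610 and 689 against day 10, and 173 and 75 for the line difference. The numbers did not pair the samples; the crossed block, added after seeing the data, gave 991 and 694.

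Values that changed sign were the endothelial list median (1.01 with voom, 0.1 with the replicate block, -0.32 to 1.21 on leaving out each library, 0.76 without monolayer replicate 1) and the adherens and tight junction median (-0.06 to 0.46 on leaving out each library). The log2 change without monolayer replicate 1 and without replicate 2 was 2.99 and -1.96 for WFDC2, -0.42 and 1.57 for ALDH1A3, 0.37 and -0.64 for KRT14, 1.07 and -5.37 for ISG15, 5.42 and -4.13 for LCN2, 6.99 and -4.11 for IFI27, 8.13 and -4.1 for KLHDC7B, 3.86 and -3.76 for IRF7, 3.75 and -3.91 for IFITM1, -1.32 and 1.79 for XDH, and -1.82 and 1.77 for TOP2A. None of these genes was called with both monolayer libraries. The cause was not tested.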

Other observations

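The 5 genes with the widest opposite changes against the 2 monolayer libraries included IFI27, an interferon-induced gene. It was at 2078 CPM in monolayer replicate 1, 0.878 in replicate 2, and 130 and 107 at day 20. IRF7, an interferon regulatory factor, was at 129 and 0.604 CPM in monolayers and 8.3 and 10.4 at day 20, and LCN2, an iron-binding defence protein, at 1155 CPM in replicate 1, 1.43 in replicate 2, and 60.5 and 69.1 at day 20. HMGCS1, of cholesterol synthesis, ran the other way in monolayers, at 11 and 262 CPM, with 159 and 129 at day 20. Both day 20 replicates lay close together in each of these genes, between the monolayer values.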
